A study of Caenorhabditis elegans with 12 samples.

Results

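The genes described here are those of the cytosolic ribosomal proteins of Caenorhabditis elegans, taken as every row of the count table whose gene identifier carries a WormBase symbol made of rpl- or rps- and a number. They are 76 of 20182 genes: 45 are placed with the large subunit by their symbol (rpl) and 31 with the small subunit (rps). Whether each encodes a protein of the mature ribosome was not checked. A further 2 symbols of the same form, rpl-41.1 and rpl-41.2, were not analysed here. The rule uses names only, no measured value. According to the WBcel235 annotation, the genes are spread over 6 chromosomes, with 21 on I, 10 on II, 18 on III, 17 on IV, 8 on V and 2 on X.

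Ribosomes of the cytosol translate nuclear mRNAs, and each of their 2 subunits is built of ribosomal RNA and a set of small, mostly basic proteins. Growing larvae make ribosomes in every tissue, so the mRNAs of these proteins are among the most abundant in a whole-worm sample, and their coding regions are short. Both properties matter in a library from which duplicate reads were removed: once most positions of a short mRNA have given a read, further molecules add few new reads.

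The RNA came from RIP-seq, in which a tagged protein is immunoprecipitated with anti-FLAG beads (IP) and the RNA that comes with it is sequenced beside RNA of the same lysate (input). All worms were semi-synchronous populations of L3 and L4 larvae with the him-5(e1490) mutation, which raises the share of males, and were kept at 25 °C for about 30 h on E. coli NA22. The LIN41 strain carried the lin-41(n2914) mutation and a FLAG- and GFP-tagged lin-41 transgene under the lin-41 promoter and 3′UTR (xeSi197). The control strain carried sart-3 tagged with GFP and FLAG under the dpy-30 promoter with the xrn-2 3′UTR (xeSi55). LIN41 is a TRIM-NHL protein that binds and represses mRNAs, and SART-3 is a nuclear protein that acts in the assembly of splicing particles. The 4 groups, LIN41 IP, LIN41 input, SART-3 IP and SART-3 input, had 3 replicates each, which the study describes as independent biological replicates. The strains differ in the promoter, in the protein and in the lin-41 mutation, and the labels place inputs and IPs in different lanes of 1 flow cell, so that lane and library type cannot be told apart.

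Total counts were 291466 to 404046 in the LIN41 IPs, 859814 to 2024430 in the LIN41 inputs, 412440 to 612445 for IPs of SART-3 and 1274703 to 1401265 for its inputs. Whole-worm origin was checked on marker lists. A count in each of the 6 inputs was found for 18 of 18 germline and oocyte genes, 9 of 12 intestinal, 12 of 12 muscle, 12 of 12 epidermal and 12 of 12 neuronal genes, and for 20 of 51 sperm genes. Replicate 1 stood apart in each group. Over genes outside the ribosome, chi-square per degree of freedom (about 1 for counting noise) was 3.29 to 16.5 in pairs with replicate 1 and 1.51 to 2.01 between replicates 2 and 3, and values without replicate 1 are given where they matter. In such bulk RNA, fewer cells of a type and less RNA per cell cannot be told apart.

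The ribosomal protein genes had nearly the same number of counts in each library, whatever its total. Their summed count was 31719, 29826 and 29617 in LIN41 inputs 1 to 3, and 26173, 27188 and 27574 in LIN41 IPs 1 to 3. It was 31105, 31363 and 30901 in the SART-3 inputs and 27804, 29873 and 28950 in the SART-3 IPs. Averaged by group, it was 26980 ± 724 (LIN41 IP), 30390 ± 1158 (LIN41 input), 28880 ± 1037 (SART-3 IP) and 31120 ± 232 (SART-3 input; SD, n = 3). The summed counts of the 12 libraries thus lay between 26173 and 31719, while the totals lay between 291466 and 2024430. SART-3 IP 2, with a total of 612445, held 29873 of these counts, and LIN41 input 2, with a total of 859814, held 29826.

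As a share of the library, the same counts were lowest in the deepest library and highest in the shallowest. In LIN41 input 1 the 76 genes took 1.57% of all counts (95% Wilson interval 1.55 to 1.58), and in LIN41 IP 1 they took 8.98% (8.88 to 9.08). The other inputs lay between 2.21% and 3.47% and the other IPs between 4.88% and 6.99%. Averaged by group, the share was 7.60% ± 1.20 (LIN41 IP), 2.67% ± 0.988 (LIN41 input), 5.99% ± 0.982 (SART-3 IP) and 2.32% ± 0.118 (SART-3 input; SD, n = 3). These intervals treat counts as independent draws, which collapsed counts are not, and they do not cover differences between replicates. Without molecular identifiers the reads do not stand for separate molecules.

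**Figure D1:**
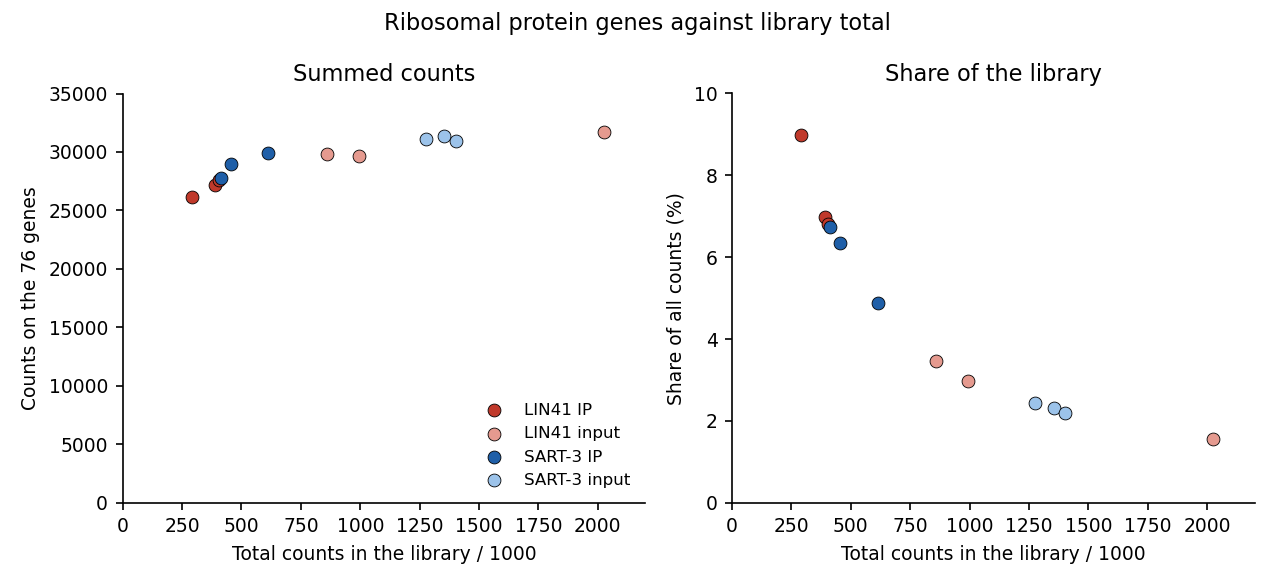
Counts summed over the 76 ribosomal protein genes (left) and their share of all counts in percent (right) against the total counts of the library, with 1 point per library coloured by group. The summed counts stay between 26173 and 31719, and the share falls from 8.98% in the shallowest library to 1.57% in the deepest.

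Counts were next divided by the gene length in the file, which for 76 of 76 genes is a multiple of 3 and for 73 equals the coding length in WBcel235, with or without the stop codon. This length ranged from 156 bp in rpl-39 to 1206 bp in rpl-3, with a median of 453 bp. Since the authors collapsed reads with the same 5′ end, a library can hold about 1 count per position and strand, and the highest value of any gene in any library was 0.932 counts per bp. The median over the 76 genes was 0.867, 0.822 and 0.813 counts per bp in LIN41 inputs 1 to 3 and 0.850, 0.862 and 0.844 in the SART-3 inputs. It was 0.719, 0.756 and 0.761 in LIN41 IPs 1 to 3 and 0.762, 0.824 and 0.792 in the SART-3 IPs. In the inputs, 72 of the 76 genes had a mean above 0.5 counts per bp, as did 297 genes in all. Above 0.8 there were 79 genes, of which 63 were ribosomal protein genes.

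**Figure D2:**
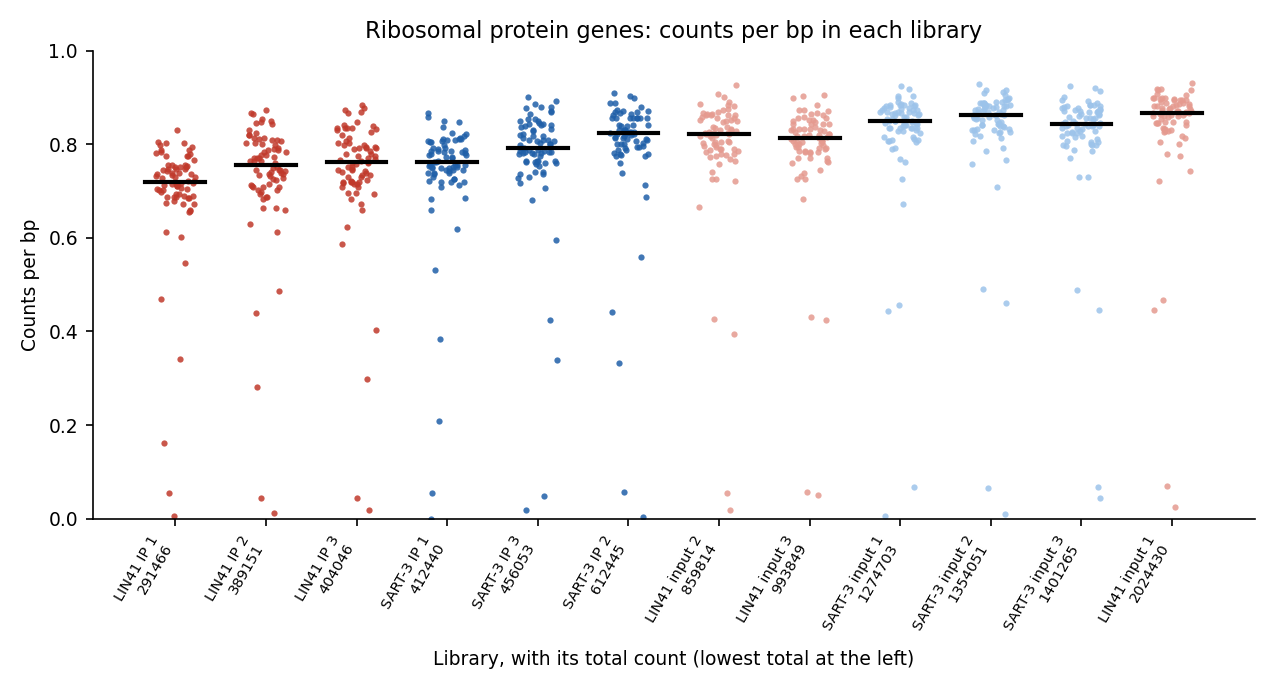
Counts per bp of coding length for each of the 76 genes (points) in each of the 12 libraries, ordered from the lowest total count at the left to the highest at the right, with the median as a black line. The medians run from 0.719 in LIN41 IP 1 to 0.867 in LIN41 input 1, and few genes lie below 0.5.

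The genes nearest the limit were rpl-31, rps-25 and rpl-43, which had the highest means in the inputs. The small-subunit gene rps-25, 354 bp long, had 324, 321 and 320 counts in LIN41 inputs 1 to 3 and 284, 309 and 308 in the IPs. In the SART-3 strain it had 325, 329 and 327 counts in the inputs and 304, 322 and 314 in the IPs. Each IP lay below each input of its strain in LIN41, and SART-3 IP 2 came within 3 counts of an input. For rpl-31, a large-subunit gene of 369 bp, the counts were 339, 327 and 332 in the LIN41 inputs and 296, 314 and 320 in the LIN41 IPs. For rpl-43, a large-subunit gene of 276 bp, they were 257, 256 and 250 in the LIN41 inputs and 222, 239 and 244 in the LIN41 IPs.

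The shortest and the longest genes showed the same narrow range. The gene of the exit-tunnel protein rpl-39 had 137, 135 and 133 counts in the LIN41 inputs and 110, 132 and 129 in the LIN41 IPs, and in the SART-3 strain 131, 134 and 136 in the inputs and 127, 136 and 131 in the IPs. For rps-29, of 171 bp, which encodes a zinc-binding small-subunit protein, the LIN41 inputs held 127, 124 and 124 counts and the IPs 103, 122 and 123. These IP and input counts overlapped for rpl-39 in the SART-3 strain. At the other end, rpl-3, whose product lies close to the peptidyl transferase centre, had 1107, 958 and 957 counts in the LIN41 inputs and 831, 801 and 840 in the IPs. The gene of another large-subunit core protein, rpl-4, of 1038 bp, had 934, 810 and 800 counts in the inputs and 738, 690 and 697 in the IPs. Both long genes had fewer counts in each LIN41 IP than in each LIN41 input. Relative to the input, counts per bp in the IPs (mean over the 6 libraries of each type) had a median ratio of 0.938 in the 25 shortest genes, 0.923 in the 25 of middle length and 0.903 in the 26 longest.

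The spread between genes depended on the scale. Over all 76 genes, the coefficient of variation of counts per bp was 18.0% to 20.2% in the 4 groups. Among the 72 genes with more than 0.5 counts per bp in the inputs, a choice made on the same capped measure, it was 4.93% (LIN41 input), 4.50% (SART-3 input), 7.78% (LIN41 IP) and 6.44% (SART-3 IP). Their means ran from 0.690 to 0.922 counts per bp in the LIN41 input and from 0.514 to 0.858 in the LIN41 IP. Converted to reads before collapsing, if 5′ ends fell evenly, the same 72 genes ran from 1.17 to 2.55 reads per bp in the LIN41 input.

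In contrast, 4 genes stood below 0.5 counts per bp in the inputs. The lowest, rpl-42, had 11, 8 and 24 counts in the LIN41 inputs, 2, 5 and 8 in the LIN41 IPs, 2, 4 and 19 in the SART-3 inputs and 0, 1 and 8 in the SART-3 IPs. The count of 0 in SART-3 IP 1 allows up to 3 counts, or 8.33 as a normalised CPM (counts scaled to library size). Counts of rpl-42 were highest in replicate 3 of each group.

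A different pattern was seen for rpl-2, which encodes a core protein of the large subunit, and for rpl-37, which encodes a zinc-binding one. The gene rpl-2, of 783 bp, had 54, 42 and 40 counts in the LIN41 inputs, 43, 34 and 34 in the LIN41 IPs, 53, 52 and 53 in the SART-3 inputs and 43, 45 and 37 in the SART-3 IPs. Its level stayed between 0.0434 and 0.069 counts per bp, and its counts in LIN41 input 1 were 1.29 times those in LIN41 input 2, where the total was 2.35 times as high. For rpl-37, of 276 bp, the LIN41 inputs held 118 to 123 counts, the LIN41 IPs 94, 121 and 111, the SART-3 inputs 126, 127 and 123 and the SART-3 IPs 106, 122 and 117. The counts of rpl-2 thus ran from 34 to 54 and those of rpl-37 from 94 to 127, at levels far below 1 count per bp. An exon of dhcr-7 overlaps rpl-2 on the opposite strand. Its part in these counts was not tested.

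The counts of rpl-24.2 varied more between libraries. It had 228, 193 and 208 counts in the LIN41 inputs, 79, 137 and 146 in the LIN41 IPs, 217, 240 and 239 in the SART-3 inputs and 102, 163 and 166 in the SART-3 IPs. Its namesake rpl-24.1, which encodes a protein at the interface of the subunits, had 418, 409 and 400 counts in the LIN41 inputs and 363, 385 and 380 in the LIN41 IPs, at a similar length (480 and 489 bp). The IP counts of rpl-24.2 lay far below its input counts in both strains, and those of rpl-24.1 only slightly below. Of the other same-numbered pairs, rpl-11.1 had a mean of 0.69 counts per bp in the LIN41 input and 0.514 in the LIN41 IP, and rpl-11.2 had 0.793 and 0.723. These encode versions of the protein that binds the 5S ribosomal RNA. The 2 genes of the pair rpl-25.1 and rpl-25.2, which encode versions of a protein at the exit of the peptide tunnel, were alike, with 0.771 and 0.742 counts per bp in the LIN41 input and 0.659 and 0.612 in the LIN41 IP. Reads shared by such related genes may have been divided in the counting, which was not tested here.

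Within a group, where no IP is compared with an input, counts of ribosomal protein genes followed depth far less than those of low genes. Other genes above 0.5 counts per bp were not put through this comparison. It therefore does not set ribosomal protein genes apart from them. LIN41 input 1 had 2.35 times the total of LIN41 input 2. The 5143 genes under 0.1 counts per bp in each library with at least 10 counts in both had a median ratio of 2.71, and the ribosomal protein genes had a median ratio of 1.05. In the 6 within-group pairs of libraries whose totals differed by more than 1.3 times, ratios of totals ran from 1.34 to 2.35, the median ratio of low genes from 1.44 to 2.71 and that of ribosomal protein genes from 1.03 to 1.07. The ratio of rpl-24.2 did not follow depth evenly. It was 1.18 between LIN41 inputs 1 and 2 (totals 2.35 times apart), 1.10 between inputs 1 and 3 (2.04 times) and 0.982 between SART-3 IPs 2 and 3 (1.34 times). It was 1.85 between LIN41 IPs 3 and 1 (1.39 times) and 1.63 between SART-3 IPs 3 and 1 (1.11 times), so that its highest ratios were those to the IPs of replicate 1.

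The counts also varied less than random sampling would have them vary. For 12 of 12 pairs of libraries of one group, chi-square per degree of freedom over the 76 genes was below 1, the value for counting noise alone, and ranged from 0.110 (SART-3 inputs 1 and 2) to 0.834 (LIN41 IPs 1 and 3). Over other genes with at least 10 counts it ranged from 1.51 to 16.5 in the same pairs. Other genes near the limit were not taken separately. The libraries are therefore not copies of each other, although they nearly agree on these 76 genes.

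**Figure D3:**
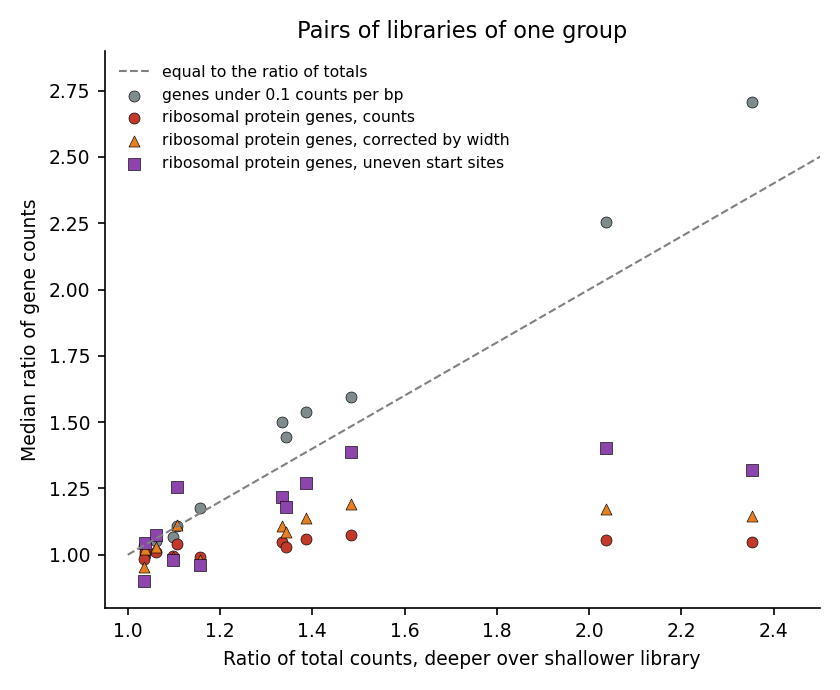
Median ratio of gene counts between 2 libraries of one group against the ratio of their total counts, for 12 pairs, with the deeper library over the shallower. Low genes (grey) lie near or above the dashed line of equality, ribosomal protein genes (red) stay between 0.985 and 1.07, and the corrected ribosomal protein counts (orange triangles and violet squares) reach at most 1.40.

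The first comparison asked which mRNAs were more abundant after LIN41 immunoprecipitation than in the input. On the normalised scale, 75 of 76 ribosomal protein genes were higher in the IP and none was lower, with edgeR's quasi-likelihood test at a Benjamini-Hochberg adjusted p under 0.05 over 12036 genes. Of all genes tested, 8.87% were higher and 5.33% lower. The median log2 ratio of the 76 genes was 1.85 (range 0.27 to 1.94), beside −0.07 over all genes tested. Among the 75 called genes, standard errors lay between 0.244 and 0.408 and adjusted p between 0.000531 and 0.00942.

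The median hides a wide spread between replicates. The per-replicate median was 3.13 in replicate 1, 1.18 in replicate 2 and 1.43 in replicate 3, and 75 of 76 genes had the same sign in each replicate. Without replicate 1 the median was 1.30 with 75 genes higher, where 9.2% of all genes tested in that fit were higher and 5.62% lower. It was 2.26 with 75 higher without replicate 2, where 7.11% of all genes were higher and 3.11% lower. Without replicate 3, only 9 genes passed the test, with a median of 2.06. Calls fell over all genes in that fit, where 1.23% were higher.

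The 5 genes with the lowest p were all short: rpl-37, rps-29, rpl-39, rps-28 and rpl-29. For rps-28, which encodes a small-subunit protein near the mRNA exit, the log2 ratio was 1.89 with a standard error of 0.299 (edgeR, adjusted p = 0.000776). For rpl-37 it was 1.87 with a standard error of 0.28 (edgeR, adjusted p = 0.000531). The longest gene, rpl-3, had a nearly equal ratio of 1.72 with a larger standard error of 0.408 (edgeR, adjusted p = 0.00942). The lowest called ratio was that of rpl-24.2, at 1.20 with a standard error of 0.244 (edgeR, adjusted p = 0.00365). The uncalled gene was rpl-42, with a log2 value of 0.27 and a standard error of 0.522 (edgeR, adjusted p = 0.767).

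Control IPs gave the same picture. In the SART-3 IP against its input, 75 of 76 ribosomal protein genes were higher and none was lower, where 10.5% of all genes tested were higher and 7.79% lower. The median log2 ratio was 1.67 (range 0.32 to 1.76), and the medians per replicate were 1.77, 1.30 and 1.87. Among called genes the adjusted p of edgeR's test ran from 0.00126 for rpl-39 to 0.0107 for rpl-3. The value of rpl-24.2 was again the lowest called, at 1.02 with a standard error of 0.24 (edgeR, adjusted p = 0.00743), and rpl-42 was not called, at 0.32 with a standard error of 0.616 (edgeR, adjusted p = 0.744). Without replicate 3 no gene passed the test at a median of 1.58, where 0.241% of all genes were higher. In that fit rpl-24.2 had a log2 value of 0.83 (edgeR, adjusted p = 0.259). By contrast, 75 genes passed without replicate 1 and 74 without replicate 2, where 16.7% and 6.59% of all genes tested were higher.

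**Figure D4:**
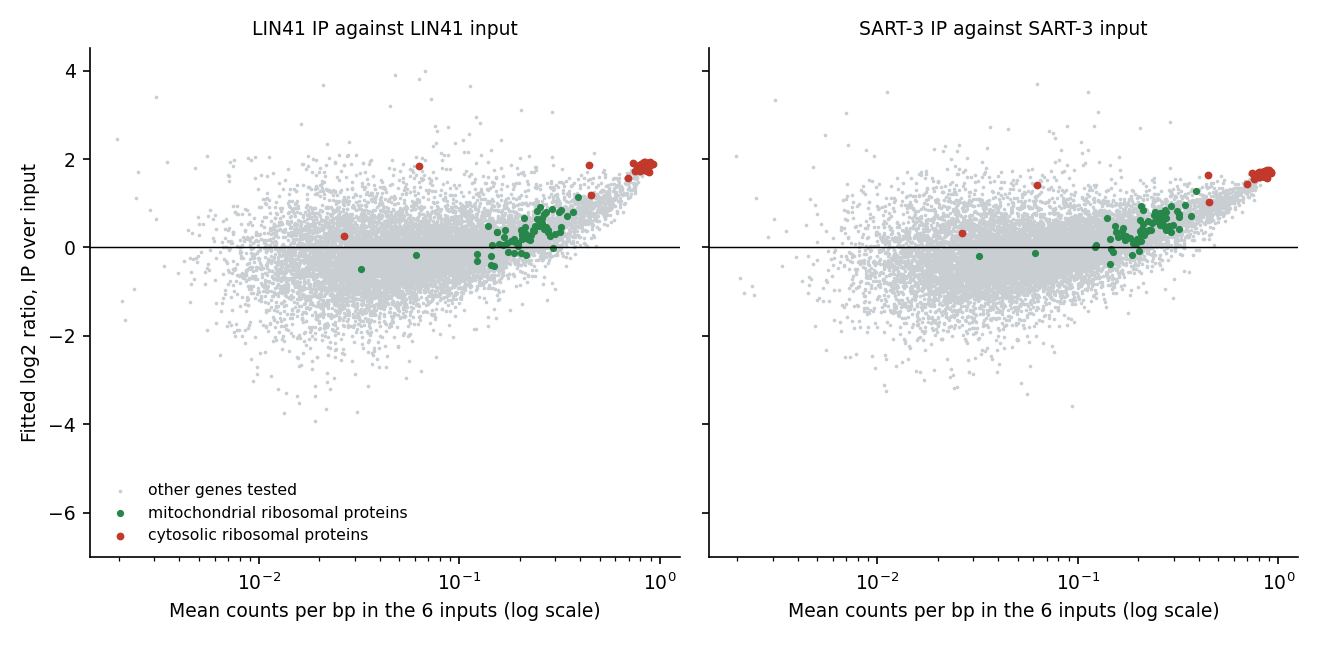
Fitted log2 ratio of IP over input against the mean counts per bp in the 6 inputs (log scale) for 12036 genes, with LIN41 at the left and SART-3 at the right. The cytosolic ribosomal protein genes (red) lie at the right end of a cloud of other genes (grey) that bends upward, mostly between 1.2 and 1.9, and the mitochondrial ribosomal protein genes (green) lie lower on it, with medians of 0.35 and 0.45.

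Raw counts pointed the other way. In each of the 3 LIN41 pairs 76, 75 and 73 of the 76 genes had fewer counts in the IP than in the paired input, and in the SART-3 pairs 76, 72 and 73 did. This held in all 3 pairs for 72 genes in LIN41 and 69 in SART-3, where it did for 95.5% and 97% of all genes tested. Counts per bp were lower in each LIN41 IP than in each LIN41 input for 70 genes, where 88.9% of all genes tested were, and in the SART-3 strain for 58 genes, where 87.6% were. A lower raw count in the shallower IP was thus no property of these genes. What differed was its size. The median raw count ratio of IP to input was 0.839, 0.924 and 0.940 for ribosomal protein genes in the LIN41 pairs, and 0.0861, 0.396 and 0.333 over all genes tested. In the SART-3 pairs the ratios were 0.896, 0.959 and 0.945 for ribosomal protein genes, and 0.259, 0.383 and 0.250 over all genes tested.

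The normalised log2 ratio is the sum of the log2 ratio of raw counts and the log2 ratio of the scaled library totals, input over IP. For ribosomal protein genes nearly all of it was the second term. In LIN41 pair 1 the median raw term was −0.25 and the library term 3.43. In pairs 2 and 3 the raw terms were −0.11 and −0.09 and the library terms 1.30 and 1.53. In the SART-3 pairs the raw terms were −0.16, −0.06 and −0.08 and the library terms 1.94, 1.37 and 1.97. LIN41 replicate 1, with the deepest input and the shallowest IP, was the one with the highest ratio. From these values alone, enrichment in the IP and a nearly fixed count over a smaller total cannot be told apart.

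**Figure D5:**
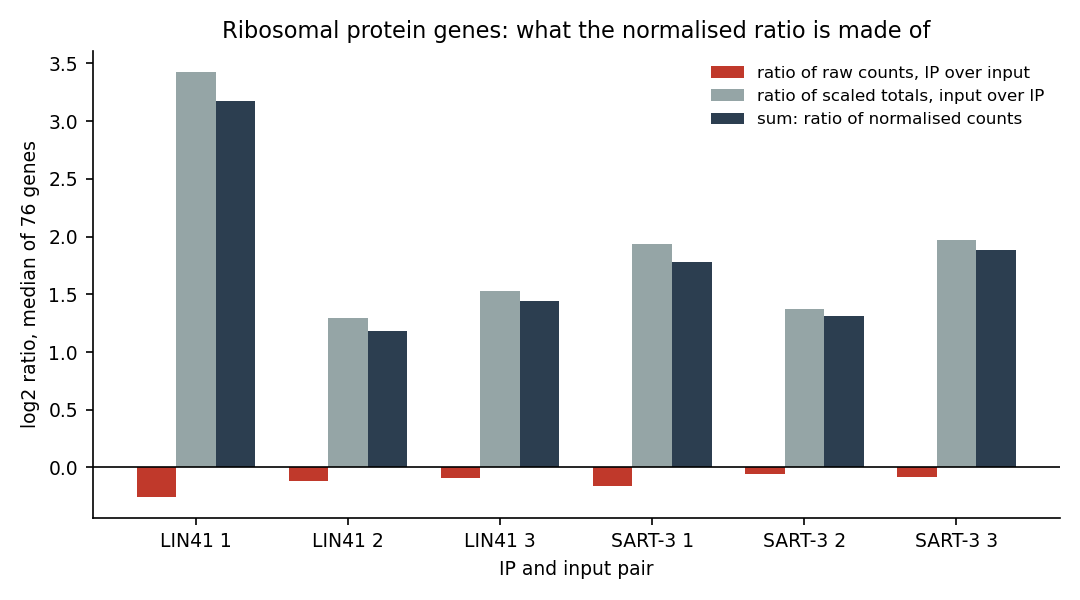
Median log2 values over the 76 genes for each of the 6 IP and input pairs: the ratio of raw counts (red), the ratio of scaled library totals (grey) and their sum, the normalised ratio (dark). The red bars lie between −0.25 and −0.06, and the dark bars follow the grey ones, which lie between 1.30 and 3.43.

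Genes outside the ribosome were then arranged by their counts per bp in the inputs. In the LIN41 IP against its input, the median log2 ratio of other genes was −0.32 under 0.05 counts per bp, −0.16 from 0.05 to 0.1, 0.07 from 0.1 to 0.2, 0.34 from 0.2 to 0.3, 0.68 from 0.3 to 0.5 and 1.21 above 0.5 (225 genes, of which 199 were higher). In the SART-3 strain the same bands had medians of −0.32, −0.13, 0.15, 0.44, 0.72 and 1.15. The median of the 72 ribosomal protein genes above 0.5 was 1.85 with LIN41 and 1.68 with SART-3. The single ribosomal protein gene between 0.05 and 0.1, rpl-2, departed from this trend. Its log2 ratio was 1.83 with a standard error of 0.303 in LIN41 (edgeR, adjusted p = 0.00107) and 1.40 with a standard error of 0.288 in SART-3 (edgeR, adjusted p = 0.00377). With counts corrected for collapsing by the coding length it was 1.90 and 1.45. At so low a level this correction changes counts little in any case. In a finer division chosen after the data were seen, 36 other genes at 0.7 to 0.8 counts per bp had a median of 1.48 in LIN41 and 1.40 in SART-3, beside 1.84 and 1.66 in 8 ribosomal protein genes. Above 0.8, 16 other genes, a thinly filled band, had medians of 1.80 and 1.63, beside 1.85 and 1.68 in 63 ribosomal protein genes. These 16 include the 6 further genes of the cytosolic ribosome, at 0.808 to 0.916 counts per bp in the inputs. In this band the other genes were thus partly ribosomal themselves. The medians were thus close above 0.8 and farther apart from 0.7 to 0.8, a difference that was not tested. The sets were not matched within the bands. From 0.7 to 0.8, the median level in the inputs was 0.742 counts per bp in other genes and 0.788 in ribosomal protein genes, with median lengths of 498 and 442.5 bp, and above 0.8 it was 0.835 and 0.851, with median lengths of 369 and 456 bp.

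Counts were corrected for the collapsing of reads with the mean number of reads that would fill the observed share of positions if 5′ ends fell evenly (−w ln(1 − c/w) for c counts on w bp). After this correction the share of the library taken by ribosomal protein genes was 12.3% ± 1.40 (LIN41 IP), 4.97% ± 1.65 (LIN41 input), 10.4% ± 1.30 (SART-3 IP) and 4.54% ± 0.289 (SART-3 input; SD, n = 3). The median log2 ratio became 1.71 in LIN41 and 1.58 in SART-3, and 75 genes were higher in each, where 7.76% and 9.14% of all genes tested were. The adjusted p of rpl-3, for instance, was 0.023 in LIN41 and 0.0236 in SART-3 (edgeR). Allowing 49 more positions per gene gave medians of 1.77 and 1.63. Taking the highest observed counts per bp as the limit, chosen after the data were seen, gave 1.63 and 1.51. Allowing uneven start sites, also chosen after the data were seen, gave 1.43 and 1.38 with 73 genes higher in each, where 6.36% and 7.77% of all genes were.

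The corrected counts still followed depth less than the totals did. In the 6 within-group pairs whose totals differed by more than 1.3 times, the corrected median ratios of ribosomal protein genes ran from 1.08 to 1.19 with the coding length, from 1.06 to 1.15 with 49 more positions, from 1.10 to 1.23 with the observed limit and from 1.18 to 1.40 with uneven start sites, and each lay below the ratio of totals, of 1.34 to 2.35 times. Among pairs closer in depth, SART-3 IPs 3 and 1 had a ratio of totals of 1.11 and corrected ratios of 1.11 with the coding length and 1.25 with uneven start sites. Between input and IP the totals differed by 2.21 to 6.95 times in the LIN41 pairs and 2.21 to 3.09 times in the SART-3 pairs. Pair 2 of each strain lay inside the range found within groups, and the other pairs lay above it.

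The comparison at the centre of the study is LIN41-specific enrichment, the log2 ratio of LIN41 IP over input minus that of SART-3. None of the 76 genes was called in either direction, 0 of them had an unadjusted p under 0.05, and DESeq2 and edgeR's likelihood ratio test also called 0, where 0.0415% of all genes tested were higher and 0% lower with edgeR's quasi-likelihood test. The median was 0.17 (75 of 76 genes above 0). Without replicate 1 it was −0.28, with all 76 genes between −0.37 and −0.14 and none called. The medians per replicate were 1.36, −0.11 and −0.44, so that no gene kept its sign in the 3 replicates. The library term of the same contrast was 1.49 in replicate 1, −0.07 in replicate 2 and −0.44 in replicate 3, close to these medians. Over the 76 genes, rpl-2 had the highest value, 0.43 with a standard error of 0.413, and rpl-42 the lowest, −0.05 with a standard error of 0.708.

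The inputs of the strains were compared to see whether the level of these mRNAs differed before immunoprecipitation. No gene was called in either direction (1 of 76 had an unadjusted p under 0.05, rpl-42; DESeq2 called 0), where 1.32% of all genes tested were higher and 0.0914% lower in the LIN41 input. The median was 0.28, with medians per replicate of −0.74, 0.70 and 0.58, beside library terms of −0.78, 0.77 and 0.63. Without replicate 1, 75 genes were higher in the LIN41 input at a median of 0.64, where 15.4% of all genes tested in that fit were higher and 8.53% lower. Without LIN41 input 1 alone, 73 were higher, where 9.15% of all genes were. In raw counts, 10 of the 76 genes were lower in LIN41 input 1 than in SART-3 input 1, 71 in replicate 2 and 74 in replicate 3, opposite to the normalised values. The totals differed in the same directions, with 2024430 against 1274703 in replicate 1, 859814 against 1354051 in replicate 2 and 993849 against 1401265 in replicate 3. The share over all genes tested was not counted for this measure, so it is not a result about these genes. Of 19 sperm genes tested, 5 were higher in the LIN41 input (gsp-4, spe-11, ssp-10, ssp-16 and ssp-35), with a median of 1.01 over the list. Their part in the result was not tested.

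Between the IPs, which were the shallower libraries, no ribosomal protein gene was called either (0 of 76 had an unadjusted p under 0.05, and DESeq2 called 0), where 0.191% of all genes were higher and 0.0249% lower in the LIN41 IP. The median was 0.45, with medians per replicate of 0.61, 0.58 and 0.14 and library terms of 0.70, 0.70 and 0.19. Counts per bp were lower in each LIN41 IP than in each SART-3 IP for 31 genes, where 18% of all genes tested were. Without LIN41 IP 1 the median was 0.16. Without replicate 1, rps-29 alone of the 76 was called, at 0.47 (edgeR, adjusted p = 0.0387). In that fit 1.87% of all genes tested were higher and 1.21% lower.

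Other genes of the ribosome and of translation were set beside these. Of all genes tested, 8.87% were higher in the LIN41 IP and 10.5% in the SART-3 IP. The 6 further genes of the cytosolic ribosome or bound to it (rla-0, rla-1, rla-2, rack-1, ubl-1 and ubq-2) were higher in the IP in 6 of 6 cases in both strains, with median log2 ratios of 1.81 in LIN41 and 1.64 in SART-3, and their median in the inputs was 0.845 counts per bp. The highest in LIN41 were rla-1 and ubl-1, at 1.89 and 1.85. The phosphoprotein genes rla-0, rla-1 and rla-2 make up the stalk of the large subunit, and ubl-1 and ubq-2 encode ribosomal proteins fused to a ubiquitin-like protein or ubiquitin.

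Mitochondrial ribosomal protein genes, which serve the same function in another compartment, lay at a median of 0.218 counts per bp in the inputs, and 0 of 68 tested exceeded 0.5. Of these, 12 were higher in the LIN41 IP and 23 in the SART-3 IP, where 8.87% and 10.5% of all genes tested were. None was lower, where 5.33% and 7.79% of all genes were, and the medians were 0.35 and 0.45. The highest value was that of mrpl-36, at 1.14 in LIN41 and 1.27 in SART-3 (standard errors 0.253 and 0.247).

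Translation factors were mixed. Of 40, 11 were higher and 2 lower in the LIN41 IP, where 8.87% and 5.33% of all genes tested were. In the SART-3 IP 13 were higher and none lower, where 10.5% and 7.79% of all genes were. The medians were 0.38 and 0.52. The highest in LIN41 were eef-1A.1, the elongation factor that brings aminoacyl-tRNA to the ribosome, at 1.77, its exchange factor subunit eef-1B.1 at 1.66 and iff-2, an eIF5A gene, at 1.65. In the SART-3 IP these 3 had values of 1.60, 1.54 and 1.43. Only 5 of the 40 exceeded 0.5 counts per bp in the inputs.

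Aminoacyl-tRNA synthetases and ribosome biogenesis genes lay at medians of 0.131 and 0.119 counts per bp in the inputs. Over all genes tested, 8.87% were higher and 5.33% lower in the LIN41 IP, and 10.5% and 7.79% in the SART-3 IP. Biogenesis genes were called at about these shares. Of 31 synthetase genes, 1 was higher and 1 lower in the LIN41 IP and 1 higher and 3 lower in the SART-3 IP, with medians of 0.12 and 0.24. Of 23 biogenesis genes, 2 were higher and 1 lower in the LIN41 IP and 2 higher and 2 lower in the SART-3 IP, with medians of −0.02 and 0.02. The 2 higher genes were in both cases fib-1 and nol-56, which encode proteins of the nucleolar methylation complex, with 0.87 and 0.83 in LIN41 and 0.90 and 0.88 in SART-3. In none of these lists was a gene called in LIN41-specific enrichment.

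An overlap of annotated exons may add counts to some members. In WBcel235, exons of 5 ribosomal protein genes overlap another gene on the same strand (rpl-5, rpl-7, rpl-23, rps-4 and rps-20) and those of 9 overlap one on the opposite strand, among them rpl-39 and rpl-2. Whether the counting used strand is not given in the sources used here, so counts of these genes are uncertain to that extent.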

How the data were processed

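RNA of 12 libraries (4 groups, 3 replicates each) was sequenced as 50-bp single-end reads. The authors collapsed reads with one 5′ end to a single read, aligned them with QuasR and counted those overlapping exons of the WS190 gene models. The assembly is given as ce6 in the paper and as ce10 in the labels. The deposited counts are not normalised, and the deposited gene length is called coding length here. Symbols came from a name table that matched 93.04% of identifiers.

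Genes were filtered with filterByExpr, which kept 12036 genes and 76 of 76 ribosomal protein genes, and counts were scaled with TMM factors. All 12 libraries were fitted in 1 edgeR 4.0.16 quasi-likelihood model (R 4.3.3) with replicate number, library type, protein and their interaction, two-sided, with Benjamini-Hochberg adjusted p under 0.05. Standard errors are the absolute log2 value over the square root of F. Per-replicate values subtract log2 CPM (prior count 2). The code was tested on simulated data. Counts per bp, ratios and figures were computed in Python with pandas and matplotlib.

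Replicate numbers were used as pairs, and the study's model has a batch term. In groups compared directly, deviations from group means correlated at the same number with r from 0.264 to 0.704. These values used 5255 genes with at least 10 counts in each library. Between LIN41 input and SART-3 IP, r was −0.0348 in replicate 2. Unlike numbers were not correlated and replicate 1 stood apart in each group, so these values cannot show how replicates 2 and 3 pair. Total counts ranged from 291466 to 2024430. Genes given in full are those with the 3 highest and 3 lowest counts per bp, the 2 shortest and longest, same-numbered pairs, the 5 of lowest p per comparison and direction, and up to 3 of each other list. The members, lists and tests were chosen with earlier results of these data known. Alternatives were the likelihood ratio test, DESeq2 1.42.0, no replicate block, RLE factors, total counts, TMM factors from low genes, no filter, thinned counts, 4 corrections for collapsed reads (2 of them chosen after the data were seen) and leaving out each replicate and each library. No sequences were used here.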

Additional observations from a re-analysis of the deposited data

How the results depend on the processing

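The count of ribosomal protein genes higher in the IP was 75 in both strains under each alternative that kept all libraries, except 73 in both with uneven start sites, and those genes were among the 75. In these fits the share of all genes tested that was higher ran from 4.13% to 12.2% in LIN41 and from 4.33% to 18.9% in SART-3. With thinned counts rpl-42 was not tested. The median log2 ratio of ribosomal protein genes ran from 1.43 (uneven start sites) to 2.07 (TMM factors from low genes) in LIN41 and from 1.38 (total counts) to 1.95 in SART-3. Scaling by total counts moved the median of all genes to −0.41 and −0.32, and relative to that the medians of 1.54 and 1.38 changed little. Fitted with no replicate block, both counts stayed at 75 (medians 1.86 and 1.68), and the block changed no call in the other comparisons. With uneven start sites the median fell from 0.45 to 0.18 for LIN41 IP against SART-3 IP, from 0.28 to 0.11 between inputs and from 0.17 to 0.08 in LIN41-specific enrichment. The cause was not tested.

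Leaving out 1 replicate or library moved the counts of higher genes to between 9 and 75 in LIN41 and between 0 and 75 in SART-3, both lowest without replicate 3. The share of all genes tested that was higher ran from 1.23% to 10.5% and from 0.241% to 17.7% in the same fits. For the inputs the counts moved to between 0 and 75 and for the IPs to between 0 and 1. The shares over all genes there ran from 0.0249% to 15.4% and from 0.0461% to 1.87%. The medians ran from 1.30 to 2.26 in LIN41, from 1.52 to 1.86 in SART-3, from −0.28 to 0.56 in LIN41-specific enrichment, from −0.10 to 0.71 between inputs and from 0.16 to 0.60 between IPs. Without replicate 2, a fit of the same size that also holds replicate 1, the counts were 75 and 74. The cause of the loss without replicate 3 was not tested.

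Of the values of single named genes under these alternatives, 874 kept their direction and side of the threshold, 44 fell below it, 33 passed it and 0 reversed. In 1468 others neither fit passed, and their direction was not compared. Depth limits what can be said. Near the limit of about 1 count per bp, a rise in mRNA adds few counts. A fall in mRNA removes a smaller share of the counts than of the mRNA.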
